A study of Homo sapiens with 6 samples.

Results

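The genes described here are 10 genes of growth factor signaling outside the ErbB family: the ligands PDGFC and PDGFD, the receptor tyrosine kinases PDGFRA, IGF1R, INSR, MET, AXL, FGFR1 and DDR2, and the adaptor IRS1. They were chosen by gene symbol in the probe annotation of the array, and all 10 were measured among 18417 genes. U373MG cells, an established human glioblastoma line, were exposed for 24 hours to 1 of 3 tetrahydroisoquinoline alkaloids, each at its own IC50, the half-inhibitory concentration. ET-770, an ecteinascidin from a tunicate, was given at 4.83 nM, ET-770-DR, its pyridinecarbonyl derivative, at 1.70 nM, and RM, renieramycin M, a quinone alkaloid from a sponge, at 3.10 nM. The control of each compound was a culture of the same line that received the vehicle (DMSO) at an equivalent concentration for the same time. The study was done as 3 independent experiments, each with 1 array of a compound and 1 array of DMSO, and gene expression was read on 6 Human Gene 1.0 ST arrays. A signal below is the RMA value of a gene on an array, on a log2 scale, and a fold change is the ratio, on the linear scale, of the compound array to the DMSO array of the same experiment.

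Receptor tyrosine kinases span the cell membrane, bind a growth factor outside the cell and phosphorylate themselves and adaptor proteins inside it, which starts the RAS-ERK and PI3K-AKT cascades of growth and survival. IGF1R and INSR are close relatives that form hybrid receptors and pass their signal on through IRS1. PDGFC and PDGFD are secreted in a latent form and are activated by proteases. PDGF-C dimers act on the PDGF receptor alpha and PDGF-D dimers mainly on the beta receptor. MET is the receptor of hepatocyte growth factor, AXL binds GAS6, FGFR1 binds fibroblast growth factors, and DDR2 is activated by fibrillar collagen rather than by a soluble factor. In glioblastoma, PDGFRA and MET are among the receptor genes known to be amplified in part of the tumors.

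Promoter windows from RefSeq (GRCh38.p14) were held for 8 of the 10 genes, while PDGFC and FGFR1 had no entry. The 250 bases before the transcription start are shown for IGF1R, INSR and PDGFD, which were lower with all 3 compounds, and for IRS1, the member that was higher. Each of these genes has 1 listed start. The sequences run 5′ to 3′ on the strand of the gene, and capitals mark the GC box letters GGGCGG, searched on both strands (in INSR, 3 matches share letters and form 1 run). IGF1R lies at chr15:98648289-98648538 (plus strand), INSR at chr19:7294415-7294664 (minus strand), PDGFD at chr11:104164148-104164397 (minus strand) and IRS1 at chr2:226799821-226800070 (minus strand).
IGF1R: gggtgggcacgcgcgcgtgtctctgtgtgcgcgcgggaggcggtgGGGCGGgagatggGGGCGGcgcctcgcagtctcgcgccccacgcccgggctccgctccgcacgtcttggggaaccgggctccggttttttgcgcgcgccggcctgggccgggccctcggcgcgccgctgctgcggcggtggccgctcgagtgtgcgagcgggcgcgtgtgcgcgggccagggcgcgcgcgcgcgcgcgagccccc
INSR: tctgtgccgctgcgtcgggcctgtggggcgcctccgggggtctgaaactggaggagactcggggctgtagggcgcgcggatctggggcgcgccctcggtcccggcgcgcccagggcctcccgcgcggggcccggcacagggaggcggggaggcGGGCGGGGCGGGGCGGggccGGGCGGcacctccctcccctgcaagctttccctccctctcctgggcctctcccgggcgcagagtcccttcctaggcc
PDGFD: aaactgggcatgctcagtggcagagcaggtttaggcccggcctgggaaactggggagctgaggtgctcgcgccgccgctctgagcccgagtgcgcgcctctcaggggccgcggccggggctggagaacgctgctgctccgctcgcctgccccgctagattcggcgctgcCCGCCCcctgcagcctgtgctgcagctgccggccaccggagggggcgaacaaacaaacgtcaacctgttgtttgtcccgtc
IRS1: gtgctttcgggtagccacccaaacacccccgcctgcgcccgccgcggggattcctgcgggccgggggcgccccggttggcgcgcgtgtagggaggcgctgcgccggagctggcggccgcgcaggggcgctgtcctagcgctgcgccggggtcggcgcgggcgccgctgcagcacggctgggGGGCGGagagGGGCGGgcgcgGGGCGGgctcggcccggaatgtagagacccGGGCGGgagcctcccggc
GC content was 81.2% for IGF1R, 78.4% for INSR, 69.2% for PDGFD and 80.8% for IRS1, against a median of 58.0% over 35116 promoter windows of the same length. The GC box letters occurred 2 times in IGF1R, 4 times in INSR, 1 time in PDGFD and 4 times in IRS1, and 42.6% of all windows hold them. The letters CCAAT, in 32.0% of all windows, and TATAAA, in 10.7%, were in none of these 4 windows on either strand. GC boxes stood in the window of the member that was higher and in those of the members that were lower. MET, with 1 listed start, held 2 GC boxes at a GC content of 68.4%. DDR2 has 3 listed starts with a GC content of 40.0% to 44.4% and no GC box. TATAAA occurred 1 time in each of its windows with 40.0% and 44.4% GC, and CCAAT 2 times in that with 42.4%. AXL held 2 GC boxes in its window with 64.4% GC and 0 in that with 54.4%. PDGFRA held 2 GC boxes and 1 CCAAT in its window with 64.0% GC, and 0 of either in that with 46.8%.

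In the response shared by the 3 compounds, 7 of the 10 genes fell, 1 rose and 2 did not pass the test (limma with the experiment as a block, adjusted p under 0.05 over 18417 genes, n = 3 pairs). Over all genes, 11.2% fell and 13.1% rose. The median of the mean log2 changes was -0.93 over the 10 genes and 0.03 over all genes. The genes that fell were PDGFC, PDGFD, PDGFRA, IGF1R, INSR, MET and DDR2. IRS1 rose, and AXL and FGFR1 were not called. The members were chosen with results of these arrays known, and these counts describe them without testing them as a group. The test treats the compounds as replicates of each other, and it rests on the pairing: without the experiment as a block, 1 of the 10 genes, PDGFD, was called. On the log2 scale the DMSO arrays of the 3 experiments lay 0.55 to 1.33 apart for these genes, and after quantile normalization 0.09 to 1.13, so that levels are compared within an experiment below.

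**Figure D1:**
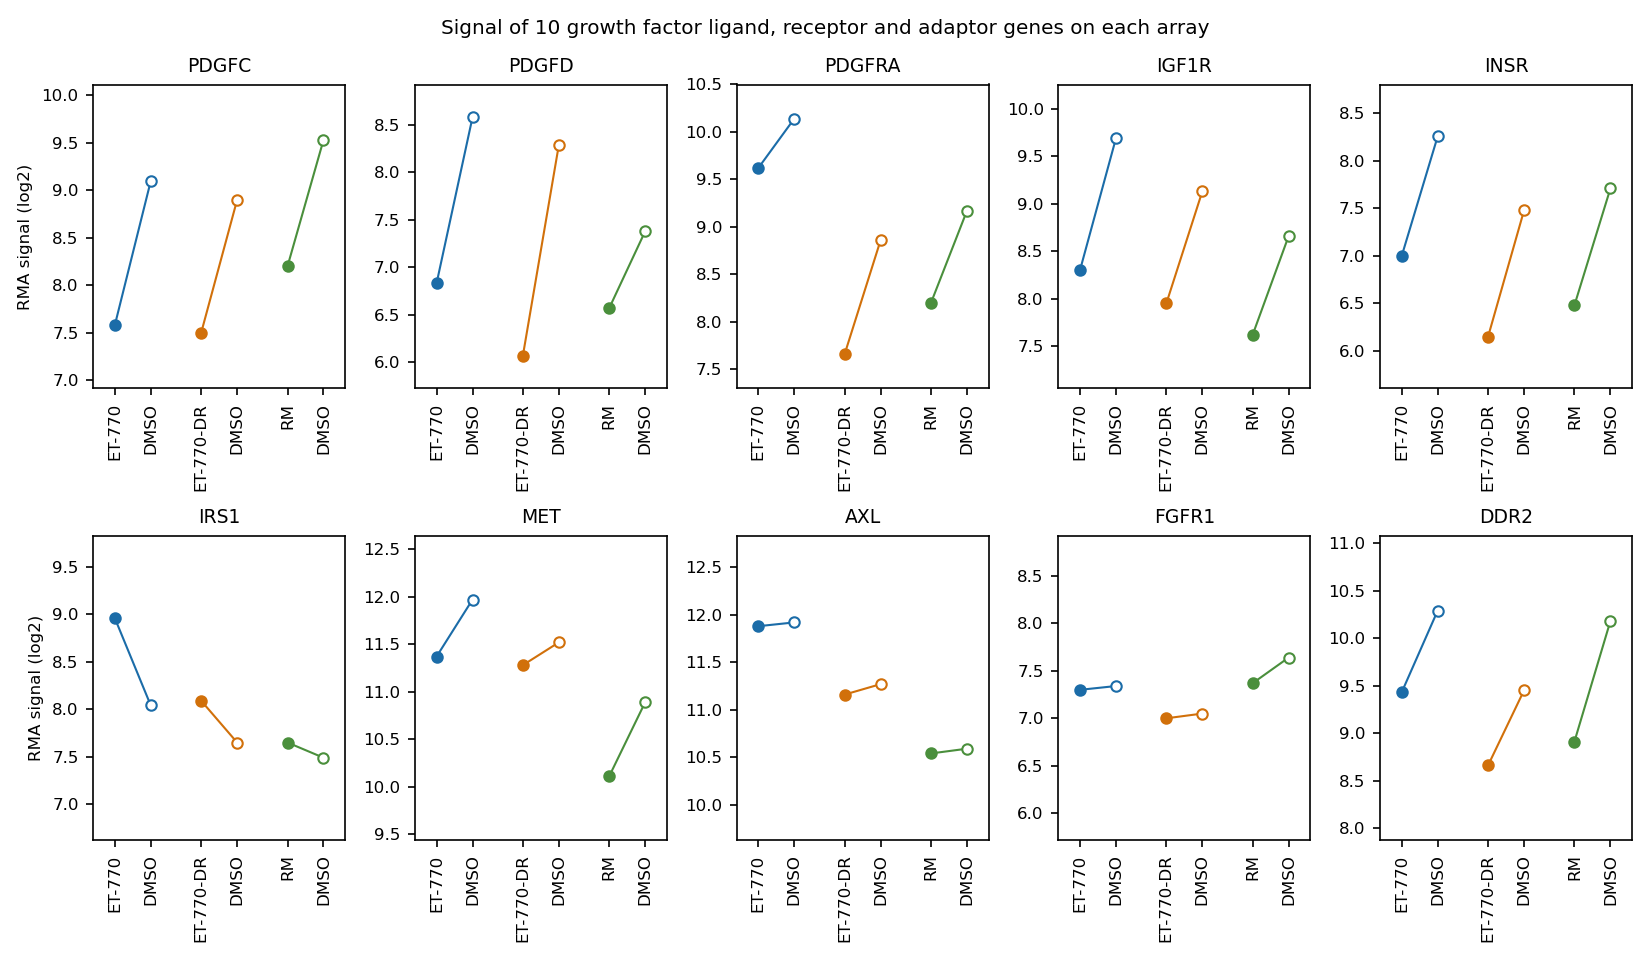
RMA signal (log2, y axis) of the 10 genes on each of the 6 arrays (x axis); filled points are compound arrays, open points the DMSO arrays, each line joins the 2 arrays of an experiment. The compound point lies below its DMSO point in all 3 experiments for 9 of the genes and above it for IRS1, while the lines of AXL and, in the ET-770 and ET-770-DR experiments, FGFR1 are nearly flat.

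PDGFD, a ligand of the PDGF receptors, had the lowest mean change of the 10 genes over the 3 experiments, though not with RM, where 5 other members were lower relative to DMSO. Without the ET-770-DR experiment its mean log2 change was -1.28, and that of PDGFC was -1.42. Its signal was 6.83 under ET-770, 6.07 under its derivative and 6.57 under RM, against 8.58, 8.29 and 7.38 on the DMSO arrays of these experiments. Every compound array lay below every DMSO array. Relative to DMSO, PDGFD stood at 0.299-fold under ET-770 and at 0.215-fold under its derivative. It was the only member under 0.3333-fold, the threshold of the study. Of all genes, 2.15% were under that threshold for ET-770 and 2.12% for the derivative. With RM it was at 0.571-fold, in the experiment whose DMSO array was lowest. Its mean log2 change was -1.59 ± 0.22 (SE, n = 3 pairs, limma adjusted p = 0.00082), and the 3 changes had an SD of 0.72, the widest of the members. No member was past 3-fold in either direction with RM, where 1.36% of all genes were under 0.3333-fold and 0.0434% over 3-fold.

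PDGFC, a ligand of the PDGF receptor alpha, was lower by a similar amount with each compound. Its signal was 7.58 under ET-770, 7.50 under its derivative and 8.20 under RM, against 9.10, 8.90 and 9.53 on the matching DMSO arrays. The groups did not overlap, and the highest compound signal, that of RM, was 0.70 below the lowest DMSO signal. The fold changes were 0.348, 0.379 and 0.399, just short of a 3-fold fall, and the mean log2 change was -1.42 ± 0.12 (SE, n = 3 pairs, limma adjusted p = 5.1e-05).

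PDGFRA, the receptor of PDGF-C, fell less. Its signal was 9.62 under ET-770, 7.66 under its derivative and 8.20 under RM, against 10.14, 8.86 and 9.17 on the DMSO arrays. The groups overlapped, since both arrays of the ET-770 experiment lay above all others. Within the experiments PDGFRA was at 0.699-fold, 0.435-fold and 0.509-fold, and its mean log2 change was -0.90 ± 0.15 (SE, n = 3 pairs, limma adjusted p = 0.0021). Against the averaged DMSO arrays in place of its own, the log2 difference with ET-770 turned to 0.23, and that of all genes to a median of 0.45.

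INSR, the insulin receptor, had the most even change of the genes that fell. Its signal was 7.00 under ET-770, 6.15 under its derivative and 6.48 under RM, against 8.26, 7.48 and 7.71 on the matching DMSO arrays. Each compound array was below all DMSO arrays. The fold changes were 0.419, 0.398 and 0.426, the SD of the 3 log2 changes was 0.05, and their mean was -1.27 ± 0.12 (SE, n = 3 pairs, limma adjusted p = 8.5e-05). Each SE from limma borrows its variance in part from the other genes, so for INSR it is wider than the spread of the pairs.

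IGF1R, the receptor of insulin-like growth factor 1, fell to a similar extent. Its signal, the average of 2 probes, was 8.30 under ET-770, 7.95 under its derivative and 7.62 under RM, against 9.69, 9.13 and 8.66 on the DMSO arrays. The groups did not overlap, with 0.36 between the highest compound and the lowest DMSO signal. IGF1R was at 0.382-fold, 0.439-fold and 0.485-fold, and its mean log2 change was -1.21 ± 0.13 (SE, n = 3 pairs, limma adjusted p = 0.00017).

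The probes of IGF1R differed in how the vehicle-treated cells compared. Probe 7986383 read 6.98 under ET-770, 6.71 under its derivative and 6.91 under RM, against 8.27, 8.14 and 8.26 on the DMSO arrays, which lay within 0.13 of each other. Probe 7986359 read 9.61, 9.18 and 8.32 with the compounds, against 11.10, 10.13 and 9.06 on the DMSO arrays, which spanned 2.04. Both probes were lower with every compound. The first gave 0.410-fold, 0.372-fold and 0.392-fold, and the second 0.356-fold, 0.518-fold and 0.600-fold. With RM, probe 7986359 was the one with the smaller change.

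**Figure D2:**
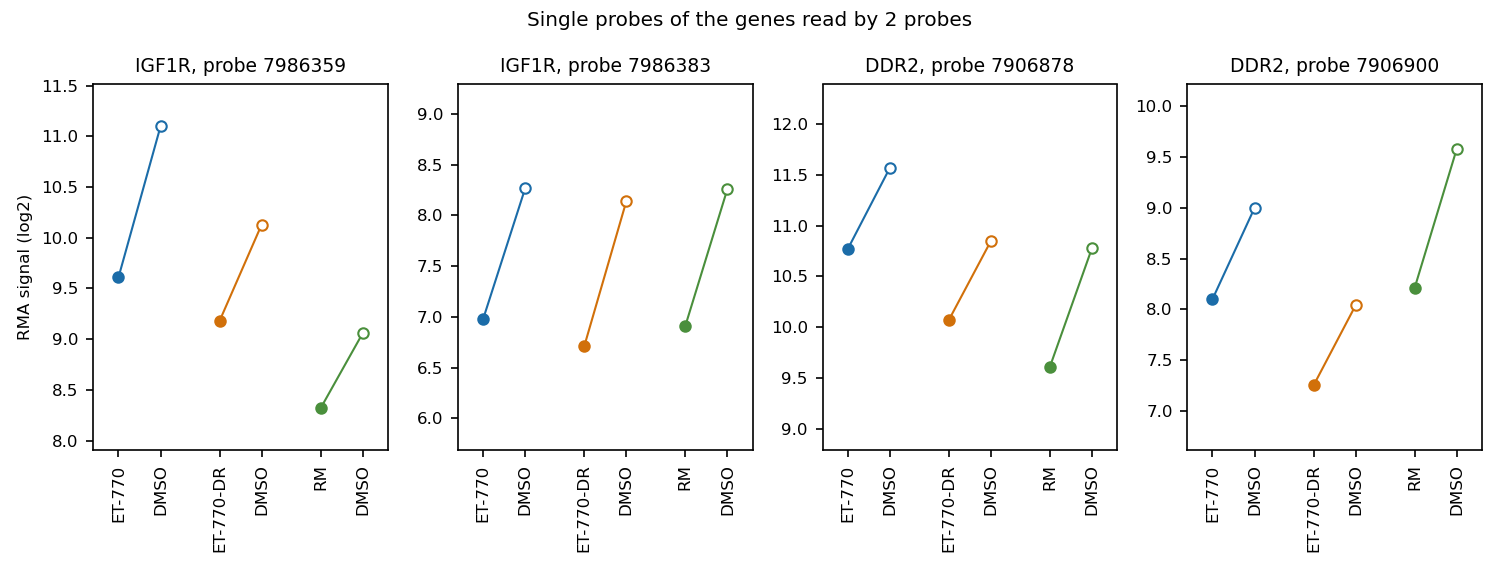
RMA signal (log2, y axis) of the single probes of IGF1R and DDR2 on each array (x axis); filled points are compound arrays, open points DMSO arrays, and lines join the arrays of an experiment. Each probe is lower with the compound in each experiment, and the DMSO arrays of IGF1R lie within 0.13 on probe 7986383 and 2.04 apart on probe 7986359.

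IRS1, the adaptor that IGF1R and INSR phosphorylate, was the member that rose. Its signal was 8.96 under ET-770, 8.09 under its derivative and 7.65 under RM, against 8.04, 7.65 and 7.49 on the matching DMSO arrays. It was higher than its own DMSO in all 3 experiments, although the groups overlapped. The fold changes were 1.89, 1.35 and 1.11 and the mean log2 change was 0.50 ± 0.16 (SE, n = 3 pairs, limma adjusted p = 0.043). Its adjusted p was the highest of the 8 called members. Without the ET-770 experiment the mean log2 change was 0.30 (adjusted p = 0.56), without the ET-770-DR experiment 0.54 (adjusted p = 0.061), and after quantile normalization 0.50 (adjusted p = 0.054). Here and below, fits that leave out 1 experiment rest on 2 pairs, and their adjusted p-values are not on the scale of the main fit. Against the averaged DMSO arrays its log2 difference with RM was -0.08.

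DDR2, the collagen receptor, was lower with each compound. Its signal, the average of 2 probes, was 9.43 under ET-770, 8.66 under its derivative and 8.91 under RM, against 10.29, 9.45 and 10.18 on the DMSO arrays. The groups were apart by 0.02 only, between the ET-770 array and the DMSO array of the ET-770-DR experiment. DDR2 was at 0.552-fold, 0.581-fold and 0.415-fold, and its mean log2 change was -0.97 ± 0.14 (SE, n = 3 pairs, limma adjusted p = 0.00084). Its probes gave 0.572-fold and 0.533-fold with ET-770, 0.584-fold and 0.578-fold with ET-770-DR, and 0.444-fold and 0.387-fold with RM.

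MET, the receptor of hepatocyte growth factor, fell by a smaller amount. Its signal was 11.37 under ET-770, 11.28 under its derivative and 10.11 under RM, against 11.97, 11.52 and 10.89 on the matching DMSO arrays. The groups overlapped, as both arrays of the RM experiment were below those of the other experiments. MET was at 0.658-fold, 0.845-fold and 0.582-fold, and its mean log2 change was -0.54 ± 0.14 (SE, n = 3 pairs, limma adjusted p = 0.019). Without the ET-770 experiment the adjusted p was 0.14, at a mean log2 change of -0.51.

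AXL, a receptor of the TAM class that binds GAS6, stood at nearly the same signal in both arms of each experiment. Its signal was 11.88 under ET-770, 11.16 under its derivative and 10.54 under RM, against 11.92, 11.27 and 10.59 on the DMSO arrays. Its fold changes were 0.974, 0.928 and 0.967 and its mean log2 change was -0.06 ± 0.12 (SE, n = 3 pairs, limma adjusted p = 0.81), while its DMSO arrays were 1.33 apart. FGFR1, a receptor of fibroblast growth factors, had signals of 7.30 under ET-770, 7.00 under its derivative and 7.37 under RM, against 7.34, 7.05 and 7.64 on the DMSO arrays. Its fold changes were 0.971, 0.963 and 0.832, with a mean log2 change of -0.12 ± 0.12 (SE, limma adjusted p = 0.60). For neither gene does the test show that the level was the same in both arms.

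**Figure D3:**
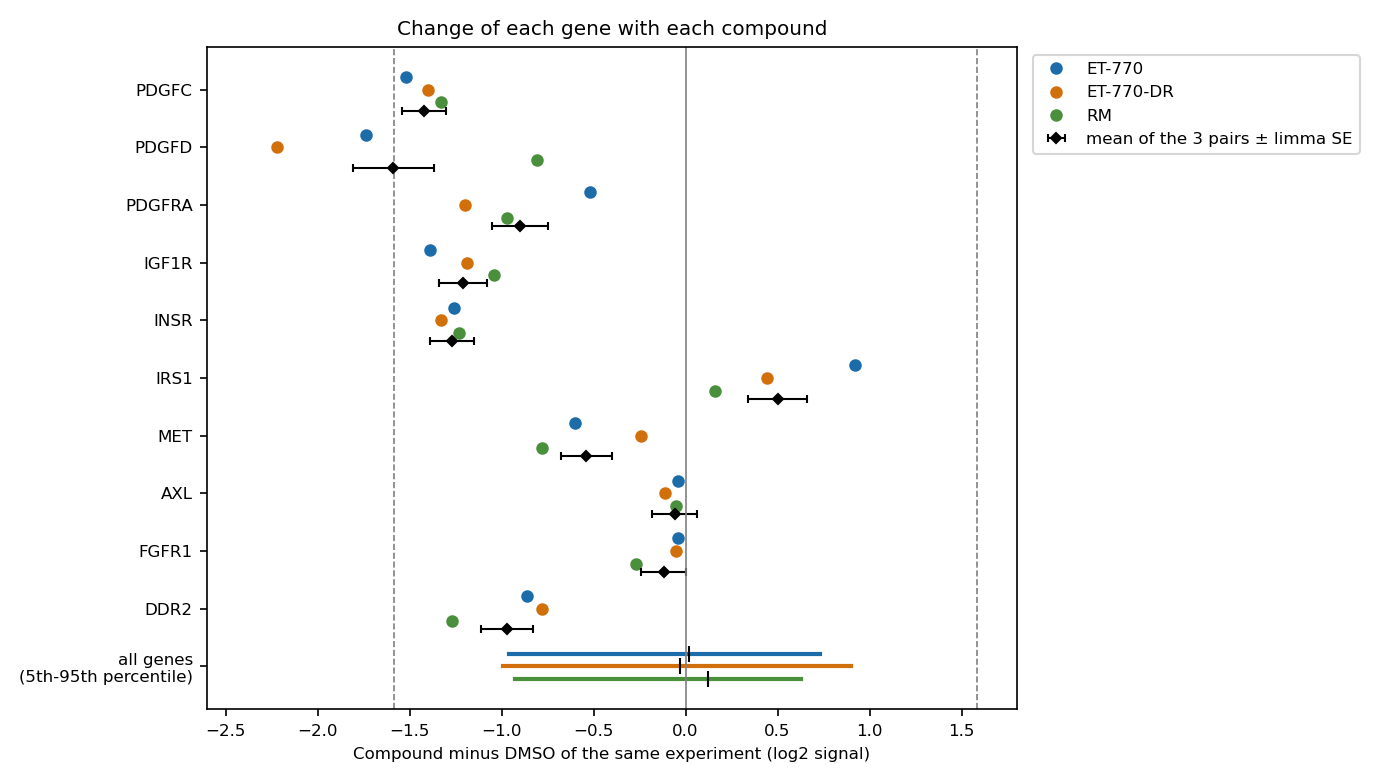
Log2 signal with each compound minus that of the DMSO array of the same experiment (x axis) for the 10 genes (y axis); coloured points are single experiments, black diamonds the mean of the 3 pairs with the standard error from limma, dashed lines 3-fold and 0.3333-fold, and the lowest row the central range of 18417 genes with their median as a tick. PDGFD with ET-770 and ET-770-DR lies beyond the dashed line, the points of INSR lie close together, and those of AXL lie near 0.

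Side by side, 9 of the 10 genes were lower than the own DMSO with every compound, where 20.6% of all genes were. For FGFR1, 1 of these 9, the log2 changes with ET-770 and ET-770-DR were only -0.04 and -0.05. After quantile normalization they were 0.04 and 0.05. Under 0.5-fold were 4 members with ET-770 (IGF1R, INSR, PDGFC and PDGFD), where 4.68% of all genes were, and 5 with ET-770-DR (these and PDGFRA), where 4.94% were. With RM, 4 members were under 0.5-fold (IGF1R, INSR, PDGFC and DDR2), beside 4.28% of all genes. IGF1R, INSR and PDGFC were under 0.5-fold with all 3 compounds, as were 2.77% of all genes. On its brighter probe alone, IGF1R stood at 0.518-fold under the derivative and at 0.600-fold under RM, and would leave that set. PDGFRA with RM was at 0.509-fold, just outside. The compound arrays lay below all DMSO arrays for 5 of the 10 genes (PDGFC, PDGFD, IGF1R, INSR and DDR2), as they did for 5.34% of all genes. On single probes the groups overlapped for IGF1R (probe 7986359, 9.61 with ET-770 against 9.06 on the DMSO array of the RM experiment) and for DDR2 (probe 7906900, 8.21 with RM against 8.04 on the DMSO array of the ET-770-DR experiment), which leaves 3 genes apart on every probe. They lay above all DMSO arrays for 0 members and for 3.62% of all genes. Over 2-fold were 0 members with any compound, beside 2.01% of all genes for ET-770, 3.84% for the derivative and 0.668% for RM. The median log2 change of the members was -0.73 for ET-770, -0.99 for the derivative and -0.89 for RM, and that of all genes 0.02, -0.03 and 0.12. ET-770-DR, which carries a pyridinecarbonyl group that ET-770 lacks, was given at 1.70 nM and ET-770 at 4.83 nM. Since the doses differed and each compound had 1 array in an experiment of its own, the compounds were not compared with each other, and compound and experiment cannot be told apart.

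The genes around these members were read from 8 lists of related ligands, receptors and adaptors, with 107 measured genes in all. Of these, 32 fell and 4 rose, or 29.9% and 3.74%, beside 11.2% and 13.1% of all genes, and their median mean log2 change was -0.10. The 4 that rose were IGFBP4, PGF, TYRO3 and PLCG1, and without the ET-770 experiment the adjusted p of each was 0.050 or above.

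In the insulin and IGF system 5 of 14 genes fell and 1 rose. GRB10, an adaptor that binds the insulin and IGF1 receptors and restrains their signal, fell by 2.01 ± 0.12 on the log2 scale (SE, n = 3 pairs, limma adjusted p = 8.4e-06). IGFBP5, a binding protein of insulin-like growth factors, fell by 1.49 ± 0.17 (SE), and IGF2R, which takes up and clears IGF2, by 0.94 ± 0.14 (SE). IRS2, the relative of IRS1, had a mean log2 change of -0.31 ± 0.12 (SE, limma adjusted p = 0.11), and the ligand IGF1 one of -0.07. IGF1 was dim, with a mean signal of 4.59 on the DMSO arrays, below the median of all genes on every array. The remaining genes that fell were PAPPA, a protease that cleaves IGF-binding proteins (-0.95), and the binding protein IGFBP3 (-0.58, and -0.35 at an adjusted p of 0.22 without the ET-770-DR experiment). IGFBP4, another binding protein, rose by 0.42 (limma adjusted p = 0.049), and after quantile normalization by 0.38 (adjusted p = 0.096).

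In the PDGF, VEGF and KIT class, 6 of 19 genes fell and 1 rose. NRP2 and NRP1, the neuropilins that serve as co-receptors of VEGF and semaphorins, fell by 1.88 ± 0.19 (SE) and 1.42 ± 0.13 (SE) on the log2 scale. The remaining genes that fell were CSF1 (-0.85), PDGFRL (-0.79), VEGFC (-0.76) and VEGFA (-0.68). PGF, placental growth factor, was the gene that rose, by 0.57 ± 0.13 (SE). The other PDGF ligands and the beta receptor were not called. Their mean log2 change was 0.39 for PDGFA (adjusted p = 0.12 from limma, n = 3 pairs) and -0.02 for PDGFB. It was 0.08 for PDGFRB, the receptor on which PDGF-D acts. PDGFB and PDGFRB were dim, with mean signals of 6.73 and 6.81 on the DMSO arrays, below the median of all genes on every array.

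In the TAM class, MERTK, a relative of AXL, fell by 1.22 ± 0.14 on the log2 scale (SE, n = 3 pairs, limma adjusted p = 0.00029), and PROS1, which encodes the ligand protein S, by 0.66 ± 0.14 (SE). TYRO3, the remaining receptor of the class, rose by 0.69 ± 0.14 (SE, limma adjusted p = 0.0061). Without the ET-770 experiment the call of TYRO3 was lost (mean log2 change 0.55, adjusted p = 0.11). GAS6 had a mean log2 change of -0.10. The 3 TAM receptors thus stood apart in direction: MERTK was lower and TYRO3 higher than DMSO with each compound, and AXL was within 0.11 of it.

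In the FGF class 3 of 18 genes fell and 15 did not pass. FGF12, an intracellular relative of the fibroblast growth factors, fell by 1.11 ± 0.17 (log2, SE) and FGFRL1, an FGF receptor without a kinase domain, by 0.86 ± 0.15 (SE). The ligand FGF1 fell by 0.55 ± 0.13 (SE). It was dim, with a mean signal of 6.26 on the DMSO arrays, below the median of all genes on every array. The kinase receptors FGFR2, FGFR3 and FGFR4 had mean log2 changes of -0.08, -0.12 and 0.18, and FGF2 one of 0.23, none of them past the threshold. FGFR2 and FGFR4 were dim, with mean signals of 5.65 and 6.47 on the DMSO arrays. Among 8 genes of collagens and collagen receptors 5 fell. ITGA2, the integrin subunit that binds collagen, fell by 1.69 ± 0.18 (SE) and COL5A2, a chain of a fibrillar collagen, by 1.24 ± 0.14 (SE). DDR1, the relative of DDR2, fell by 0.72 ± 0.14 (SE, n = 3 pairs, limma adjusted p = 0.0049), and COL1A2, a chain of type I collagen, which activates DDR2, by 1.15 ± 0.18 (SE). COL5A1 had the smallest of these falls, 0.54 ± 0.15 (SE). It did not pass without the ET-770-DR experiment (mean log2 change -0.41, limma adjusted p = 0.13). The other genes of this list were not called. Their mean log2 changes were 0.09 for COL1A1, another chain of type I collagen (limma adjusted p = 0.75), -0.10 for COL3A1 and -0.24 for ITGB1.

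Of 7 genes around MET and its relative MST1R, 0 were called by limma and 0 were under an unadjusted p of 0.05. HGF, the ligand of MET, had a mean log2 change of 0.05 and MST1R one of -0.02. Both were dim, at mean DMSO signals of 4.29 for HGF and 6.06 for MST1R, below the median of all genes on every array. Of 14 other receptor tyrosine kinases outside the ErbB and Eph families 3 fell, all by less than the members IGF1R and INSR. ROR1, a receptor of Wnt ligands, fell by 0.60 ± 0.13 (log2, SE) and PTK7, a kinase-dead Wnt co-receptor, by 0.51 ± 0.12 (SE). ROR1 was dim, with a mean signal of 7.02 on the DMSO arrays, below the median of all genes on every array. The call of PTK7 was lost without the ET-770 experiment (mean log2 change -0.56, adjusted p = 0.094 from limma) and without the ET-770-DR experiment (-0.43, adjusted p = 0.077). RYK, another Wnt receptor, fell by 0.45 ± 0.12 (SE), and without the ET-770 experiment its mean log2 change was -0.42 (adjusted p = 0.28). Of 23 shared adaptors 8 fell and 1 rose. SHC4 and NCK2, which dock on phosphorylated receptors, fell by 1.90 ± 0.18 (SE) and 1.40 ± 0.13 (SE). PLCG1, the phospholipase that receptors phosphorylate, rose by 0.51 ± 0.12 (SE).

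**Figure D4:**
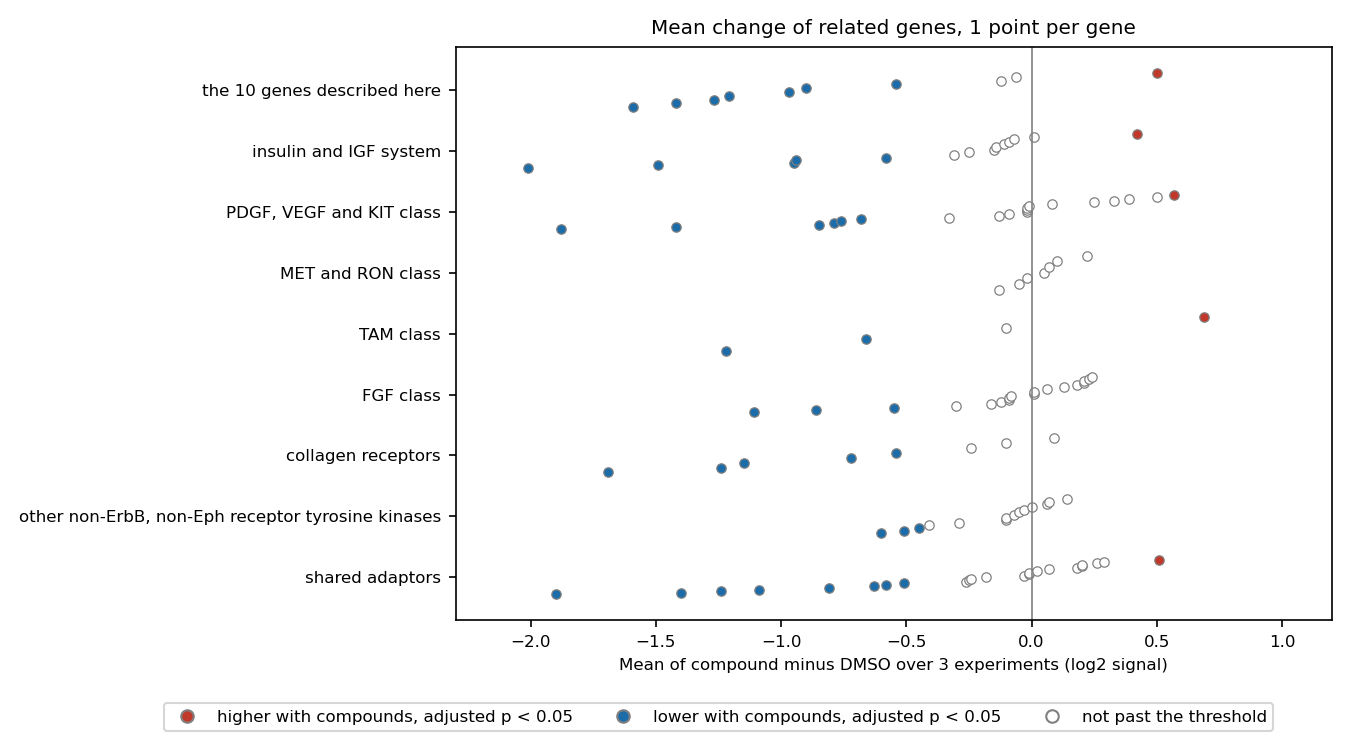
Mean log2 change over the 3 experiments (x axis, compound minus DMSO) of the 10 genes and of 107 genes in 8 related lists (y axis); each point is a gene, blue for those that fell, red for those that rose and white for those not past an adjusted p of 0.05 from limma. The blue points outnumber the red ones in each list that has any, and the MET and RON class holds white points only.

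Across the 6 arrays the signal of PDGFD was most like that of NEO1, the receptor neogenin (Pearson r = 0.991), ANTXR2, a receptor for anthrax toxin (r = 0.990), and SEMA5A, a semaphorin (r = 0.987). Their mean log2 changes were -1.34, -1.30 and -1.70. For IRS1 the most similar genes were REXO5, an RNA exonuclease (r = 0.995), RBM5, an RNA-binding protein (r = 0.989), and GABARAPL3 (r = 0.987), with mean log2 changes of 0.40, 0.46 and 0.49. These correlations run over 6 arrays of 3 experiments and were the highest over all genes measured. They are a description with no test.

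The median signal of the arrays over all genes was 7.92 under ET-770, 7.22 under its derivative and 7.41 under RM, against 7.97, 7.28 and 7.40 on the matching DMSO arrays. Markers of the glioma line were measured, with the intermediate filament VIM at 12.72 to 13.26 on the compound arrays and 12.91 to 13.56 on the DMSO arrays. The glial filament gene GFAP averaged 7.09 on compound arrays and 7.34 on DMSO arrays. It lay below the median of all genes on every array but the DMSO array of the ET-770-DR experiment (7.33 against 7.28). Of 9 such markers 5 fell (CD44, SOX2, SOX9, S100B and FABP7; the call of CD44 was lost on leaving out any 1 experiment, with adjusted p from 0.085 to 0.11 from limma), and the summed linear signal of the list ranged from 16238 to 27309 on compound arrays and from 22239 to 33964 on DMSO arrays. Of 11 markers of other cell types, 2 fell (MBP and SYT1) and 1 rose (CD68), and their summed linear signal ranged from 1544 to 3315 on compound arrays and from 1199 to 2734 on DMSO arrays. CD68 weighs most in this sum. It averaged 10.71 on compound arrays and 10.12 on DMSO arrays, and no other marker of the list was above 8.07 on any array. Without the ET-770 experiment the limma adjusted p was 0.24 for MBP and 0.057 for CD68, and without the ET-770-DR experiment it was 0.071 for MBP. The part of these markers in the changes above was not tested. In such bulk RNA, fewer cells that express a gene and less RNA per cell cannot be told apart. Each experiment had its own DMSO culture, and no group had more than 1 array, so that p-values measure the spread of the change over 3 different compounds.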

How the data were processed

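Total RNA of 6 U373MG cultures was labelled and hybridised to Human Gene 1.0 ST arrays. The deposited values are log2 signals that the authors made from CEL files by RMA in Affymetrix Expression Console; whether all arrays were summarised in 1 run is not given in the sources used here. RMA compresses changes of dim probes. Of 33297 probes, 19460 carried 1 gene symbol in the platform annotation, 1754 several and 12083 none. Probes with 1 symbol were averaged per gene. This left 18417 genes, and 769 had more than 1 probe.

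Each compound was compared with the DMSO array of its experiment (1 array per arm, no p), with the thresholds of the study, 3-fold and 0.3333-fold. For the shared response, limma 3.58.1 (R 4.3.3) took the experiment as a block, with Benjamini-Hochberg adjustment over all genes at 0.05. The labels tie each DMSO array to a compound. Deviations from the arm means had Pearson r of 0.83, 0.69 and 0.82 within experiments and of -0.68 to 0.24 between them. Since deviations from a mean cancel out over its 3 arrays, the values between experiments are not independent of those within. The fit was also run on simulated data with the same spread for all genes and the same change on all compound arrays. That run does not test the p-values at spreads that differ between genes and compounds, as in these data.

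The 10 members and the related lists were chosen with earlier results of these data known. The text names all members, the 2 called genes of each related list with the largest mean change, relatives of members, and the 3 genes closest to PDGFD and to IRS1 by Pearson correlation. IGFBP3, IGFBP4, PAPPA, PGF, FGF1, COL5A1, RYK, PLCG1 and the marker genes named were chosen after their values were seen. So were CSF1, PDGFRL, VEGFA, VEGFC, COL1A1, COL3A1 and ITGB1. Alternatives were no block, quantile normalization, limma with a trend, the brightest or dimmest probe per gene (the dimmest chosen after seeing the data), a filter at the median signal, the mean of the DMSO arrays as control, a 2-fold threshold and leaving out each experiment. Fits that leave out an experiment have 2 pairs and lean more on variance borrowed from other genes. The limma adjusted p of PDGFD was 0.00082 with 3 pairs and 5e-14 without the RM experiment. Promoter windows came from RefSeq (GRCh38.p14).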

Additional observations from a re-analysis of the deposited data

Results flagged for a closer look

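Changes of opposite direction between compounds were common: 43 of the 107 related genes (40.2%) and 49.0% of all genes had them. Values are given for the 8 of 19 close relatives of the members in which the change ran in opposite directions between compounds, each against the DMSO array of its own experiment. No difference between compounds was tested, since each compound had 1 array per arm. PDGFA, a ligand of the PDGF receptor alpha, had a log2 change of 0.59 under ET-770, of 0.64 under its derivative and of -0.07 under RM. FGF2, a fibroblast growth factor, had 0.41, 0.45 and -0.17 in the same order of compounds. GAS6, the ligand of AXL, had 0.08, -0.46 and 0.08. The receptor FGFR2 had -0.04, 0.20 and -0.39, and FGFR3 had 0.12, -0.34 and -0.13. HGF had 0.02, -0.12 and 0.26, MST1R 0.01, -0.16 and 0.10, and PDGFB 0.04, -0.13 and 0.02. Of these genes HGF, FGFR2, MST1R and PDGFB lay below the median signal of all genes on every array. Their mean DMSO signals were 4.29, 5.65, 6.06 and 6.73. None of the 10 members changed direction between compounds on the deposited values. After quantile normalization FGFR1 did, with 0.04 under ET-770, 0.05 under its derivative and -0.26 under RM. Leaving out the 5% of genes at either end, log2 changes of all genes ran between -0.96 and 0.73 under ET-770, -0.99 and 0.90 under its derivative, and -0.93 and 0.63 under RM, and the values given here for these 8 genes lie inside these ranges.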

How the results depend on the processing

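Of the 8 members called, 7 were called after quantile normalization and 8 with a trend, with the brightest probe per gene and with the dimmest. In these fits, in the same order, 25.7%, 27.3%, 24.2% and 24% of all genes were called. Leaving out 1 experiment at a time gave 6 to 8 called members and 27 to 43 called related genes, against 36 with all experiments. The share of all genes called was 24.3% with all experiments, 14.7% without the ET-770 experiment (1200 rose, 1505 fell), 18.7% without the ET-770-DR experiment and 33.3% without the RM experiment (3506 rose, 2635 fell). Of the related genes 27 fell and 0 rose without the ET-770 experiment, and 36 fell and 7 rose without the RM experiment. The fit without the replicate block, which ignores the pairing, called 1 member (PDGFD, adjusted p = 0.027 from limma) and 4 related genes; over all genes it called 26 that rose and 369 that fell, 2.14% in all. The filter at the median signal left 7 members, of which 6 were called, beside 46.3% of the 9209 genes left (2580 rose, 1685 fell). Against the averaged DMSO arrays, ET-770-DR had 4 members past 3-fold, beside 3.55% of all genes. The median of all genes then stood at 0.45 for ET-770, -0.25 for its derivative and -0.13 for RM. At a 2-fold threshold 4 members passed for ET-770, 5 for its derivative and 4 for RM. All of them were under 0.5-fold, as were 4.68%, 4.94% and 4.28% of all genes. Against the averaged DMSO arrays the single differences of PDGFRA with ET-770 (0.23) and of IRS1 with RM (-0.08) changed sign. Those of the uncalled members AXL with ET-770 (0.62) and FGFR1 with RM (0.03) did so too. The mean change of each called member kept its sign in every limma fit that could include it. Precision is limited by 1 array per arm and experiment.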
